A study of Rattus norvegicus with 10 samples.

Results

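The miR-23/27/24 clusters are 2 short stretches of the genome that each hold the hairpins of 3 miRNAs, and their main arms are rno-miR-23a-3p, rno-miR-23b-3p, rno-miR-24-3p, rno-miR-27a-3p and rno-miR-27b-3p. These 5 members, of 723 mature miRNAs in the count files, were taken by name and followed through 10 small RNA libraries of rat tissue. All animals were female Wistar rats with collagen-induced arthritis (CIA), a joint inflammation set off by immunisation with bovine type II collagen, and their age is not given in the sources used here. There are 5 groups with 2 libraries each. CIA_B was taken before any therapy, MS_E and MS_A were taken at 1 h and at 34 days of therapy by mechanical stimulation, and PLA_E and PLA_A at these times of placebo. Mechanical stimulation was a short needle twirled at points on the lower back and the leg, repeated on alternate days over the course and called acupuncture (AP) in the labels. Placebo was a weekly injection of saline into the peritoneum, so the arms also differ in the needle and the injection. The labels name muscle beneath the epidermis, the study's methods name subcutaneous tissue that includes subcutaneous muscle, and the series' design text also mentions blood. Nothing in the labels says that the 2 libraries of a group came from separate animals, so the p-values measure the spread between these samples, which may be technical.

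A miRNA pairs through its seed, bases 2 to 8 from its 5′ end, with target messages, which are then repressed or degraded. The 3 hairpins of a cluster are cut from a shared primary transcript by Drosha, and Dicer then frees a 3p and a 5p arm, of which 1 is usually kept at a far higher level. In the literature miR-23 and miR-27 are known from endothelial cells and the growth of vessels, miR-27 from fat cells and from muscle stem cells, where Pax3 is a target, and miR-24 from the differentiation of muscle and blood cells.

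The mature sequences are shown because they set which members can share targets and which reads the counting can tell apart. They come from the RefSeq table of build GRCr8, which matched all 5 members, are written 5′ to 3′, and have the seed in capitals.
rno-miR-23a-3p: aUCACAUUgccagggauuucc
rno-miR-23b-3p: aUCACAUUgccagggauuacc
rno-miR-27a-3p: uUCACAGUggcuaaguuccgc
rno-miR-27b-3p: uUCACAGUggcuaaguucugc
rno-miR-24-3p: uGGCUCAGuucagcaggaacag
The miR-23 members share their seed and differ from each other by U19A, counted from the 5′ end of rno-miR-23a-3p. The miR-27 members likewise share their seed and differ by C19U, counted from the 5′ end of rno-miR-27a-3p. The seeds of the miR-23 and the miR-27 pair differ from each other by U7G, counted from the 5′ end of the miRNA. Each pair is thus told apart in the counts by a base near the 3′ end, and reads that end before it could fit either member.

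In GRCr8 the first cluster lies on the minus strand at chr17:1818669-1819482, spans 814 bases and reads Mir23b, Mir27b, Mir24-1 in the direction of transcription. It falls within the span of Aopep, a protein-coding gene of an aminopeptidase, and the entry Mir3074 overlaps Mir24-1, while exons and introns were not resolved. The second cluster lies on the minus strand at chr19:40859455-40859843, spans 389 bases and reads Mir23a, Mir27a, Mir24-2, with no annotated gene spanning it. The authors aligned to the older build rn4, so these positions are given for orientation only.

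rno-miR-24-3p is the member that both clusters encode. The hairpins of Mir24-1 and Mir24-2 are shown with their 5p and 3p arms in capitals, since the 3p arms are identical and the 5p arms are not.
Mir24-1: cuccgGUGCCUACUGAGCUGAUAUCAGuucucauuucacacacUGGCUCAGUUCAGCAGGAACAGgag
Mir24-2: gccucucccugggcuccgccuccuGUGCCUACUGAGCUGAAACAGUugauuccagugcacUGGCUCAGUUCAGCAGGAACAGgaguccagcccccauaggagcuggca
The deposited counts of rno-miR-24-3p were equal at the 2 precursors in 10 of 10 libraries. Its level therefore cannot be divided between the clusters, whereas the 5p arms can be assigned to a hairpin.

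Reads on miRNAs numbered 1513799 to 8926170 per library, and the 5 members together took 1.5% of them in MS_E replicate 1 and 2.39% to 3.43% in the other 9. Levels are given in cpm, which corrects each count for the library's total and its TMM factor from edgeR (0.675 to 1.41). Every library held at least 1682 reads of each member, so counting error is small beside the spread between libraries, and since reads are not independent molecules this covers counting only. The libraries of a group did not agree on the miRNAs of skeletal muscle. miR-1-3p and miR-206-3p, both made in muscle fibres, were at 80416 to 122986 cpm and 12034 to 16100 cpm in CIA_B replicate 1, MS_E replicate 2, PLA_E replicate 1, MS_A replicate 2 and PLA_A replicate 1, and at 10117 to 15567 cpm and 1143 to 1868 cpm in the other library of each group. miR-133a-3p, also a muscle miRNA, overlapped, with 70519 to 128738 cpm against 67933 to 139388 cpm. Muscle miRNAs were thus present in every library, at levels that differed within each group. The former 5 are called the miR-1-high and the latter the miR-1-low libraries; these are not groups of the study, were set by the data and are compared as description, with no test. MS_E replicate 1 stood apart in other ways, with 434 cpm over 6 epithelial miRNAs against 33.8 to 135 cpm elsewhere, 84.5 cpm over 2 erythroid miRNAs against 14.7 to 55.6 cpm, and the highest miR-146a-5p, at 2815 cpm. Its sum over 4 endothelial miRNAs was 4394 cpm against 8564 to 14827 cpm, which lay in the arms of miR-126a, whereas miR-221-3p (85.2 cpm) and miR-222-3p (33.7 cpm) of the same list were the highest of the 10 there. PLA_A replicate 1 had 14586 cpm over 5 leukocyte miRNAs, where the others had at most 3402 cpm, mostly from miR-142-5p (5855 cpm) and miR-150-5p (6222 cpm), while its miR-146a-5p and miR-223-3p were within the range of the other libraries. In bulk tissue fewer cells of a type and less RNA per cell cannot be told apart.

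rno-miR-27b-3p was by far the most abundant member. For replicates 1 and 2 in turn, CIA_B held 25509 and 24849 cpm, MS_E 16370 and 12172, PLA_E 16161 and 29411, MS_A 27801 and 16464 and PLA_A 17240 and 27221. It ranked 10 by mean level among the 359 miRNAs tested and gave 59.9% to 83.7% of the reads of the 5 members. Its level exceeded that of rno-miR-27a-3p, with the same seed, 9.07- to 18-fold, and that of rno-miR-23b-3p, its neighbour in the cluster, 7.78- to 26.4-fold, in 10 of 10 libraries.

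rno-miR-24-3p followed with a mean of 2913 ± 1537 cpm (SD, n = 10). For replicates 1 and 2 in turn, CIA_B held 4756 and 1420 cpm, MS_E 1242 and 4157, PLA_E 4200 and 1706, MS_A 1721 and 4026 and PLA_A 4612 and 1290. The libraries fell into a high set and a low set, and every group held 1 of each.

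Of rno-miR-27a-3p, CIA_B held 2208 and 1425 cpm, MS_E 909 and 1218, PLA_E 1665 and 1748, MS_A 1888 and 1523 and PLA_A 1901 and 2141. The pair of MS_E libraries was the lowest of the 10.

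Of rno-miR-23b-3p, CIA_B held 1889 and 2274 cpm, MS_E 1375 and 1564, PLA_E 1264 and 1229, MS_A 2335 and 1265 and PLA_A 1097 and 1029. Its highest values were in CIA_B and in MS_A replicate 1, and its lowest in PLA_A.

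rno-miR-23a-3p was the least abundant. CIA_B held 1456 and 1061 cpm, MS_E 710 and 1201, PLA_E 948 and 1029, MS_A 1642 and 939 and PLA_A 1116 and 1056. CIA_B, MS_E and MS_A each held a higher and a lower library, whereas the libraries of PLA_E and PLA_A lay close together, at 948 to 1116 cpm.

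By mean level over the 10 libraries the order was rno-miR-27b-3p, rno-miR-24-3p, rno-miR-27a-3p, rno-miR-23b-3p and rno-miR-23a-3p. rno-miR-24-3p owed its place to the miR-1-high libraries, where it averaged 4350 ± 315 cpm (SD, n = 5). In the miR-1-low libraries it averaged 1476 ± 227 cpm, beside 1648 ± 612 cpm for rno-miR-23b-3p and 1622 ± 475 cpm for rno-miR-27a-3p (SD, n = 5). Only the first place was separated from the next in every library. rno-miR-24-3p was above rno-miR-27a-3p in 6 of 10 libraries, rno-miR-27a-3p above rno-miR-23b-3p in 6 of 10, and rno-miR-23b-3p above rno-miR-23a-3p in 8 of 10. The log2 ratio within a library averaged 0.64 ± 0.84 for the first of these pairs and 0.13 ± 0.59 for the second (SD, n = 10). In the miR-1-high libraries rno-miR-24-3p was at 4026 to 4756 cpm and rno-miR-27a-3p at 1218 to 2208 cpm. In the miR-1-low libraries they overlapped, at 1242 to 1721 cpm and 909 to 2141 cpm, so this pair was separated in the miR-1-high libraries alone. For the third pair the log2 ratio averaged 0.44 ± 0.36 (SD, n = 10). There rno-miR-23b-3p was below rno-miR-23a-3p in the PLA_A libraries alone, where the lowest plain ratio was 0.974. Library preparation can favour some miRNA ends over others, so an order between miRNAs is an order of read counts.

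**Figure D1:**
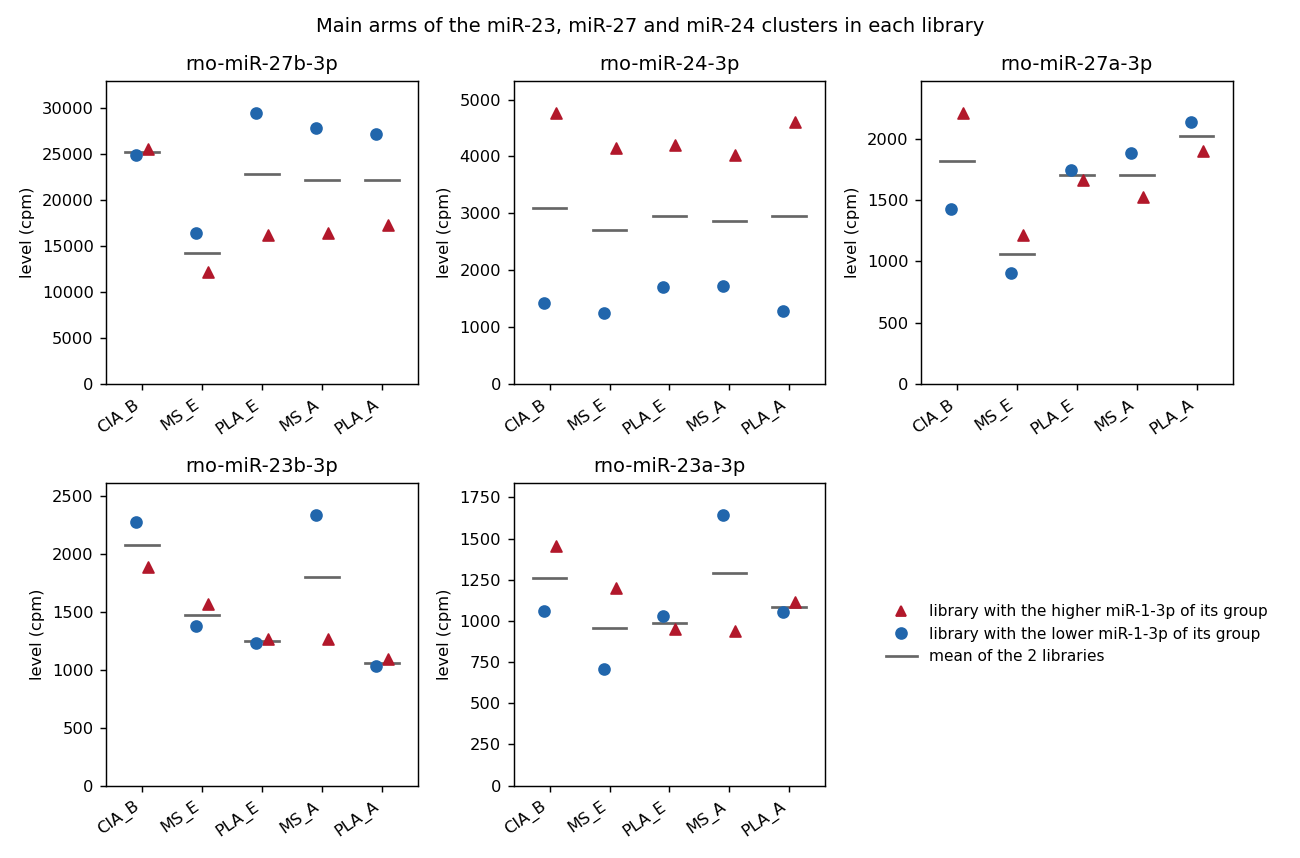
Level in cpm (linear axes from 0) of the 5 main arms in each of the 10 libraries by group, with triangles for the library with the higher and circles for the library with the lower miR-1-3p level of its group, and a line for the mean of the 2. rno-miR-24-3p lies between 4026 and 4756 cpm in the triangles and between 1242 and 1721 cpm in the circles, whereas no other member separates them.

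The first question of the design is whether the tissue changed after either therapy relative to the rats before it. The study called a miRNA changed at an unadjusted p under 0.05 with more than a 2-fold difference, and none of the 5 members met both in any of the 8 comparisons, all fitted on the 10 libraries by edgeR's quasi-likelihood test. In MS_E against CIA_B, 1 h after mechanical stimulation, the fitted levels of 5 of 5 members were lower (4 of 5 with library size only or a replicate block, and 5 of 5 in only 2 of the 4 fits that left out 1 library), with a median log2 fold change of -0.50 beside a median of 0.06 over all miRNAs tested. rno-miR-27b-3p averaged 25179 ± 466 cpm in CIA_B and 14271 ± 2968 cpm in MS_E (SD, n = 2), and its log2 fold change was -0.82 (SE 0.50, 95% confidence interval -1.95 to 0.32). rno-miR-27a-3p averaged 1816 ± 554 cpm and 1064 ± 218 cpm (SD, n = 2), and its log2 fold change was -0.77 (SE 0.40, interval -1.66 to 0.12). The smallest adjusted p of a member was 0.802 (edgeR's test, adjusted by Benjamini-Hochberg over 359 miRNAs), for rno-miR-27a-3p, whose unadjusted p was 0.0827. No difference was thus detected with 2 libraries a group. Over all miRNAs 6.41% passed the thresholds. For rno-miR-23b-3p, rno-miR-27a-3p and rno-miR-27b-3p the 2 libraries of MS_E lay below those of CIA_B, in a comparison where 31.5% of miRNAs did not overlap. MS_E replicate 1, the library with the high epithelial sum and the low miR-126a arms, was the lowest of the 10 for rno-miR-23a-3p, rno-miR-24-3p and rno-miR-27a-3p. Without it the log2 fold change was -0.61 for rno-miR-27a-3p and -1.10 for rno-miR-27b-3p, and without CIA_B replicate 1 that of rno-miR-27a-3p was -0.49.

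At 34 days of mechanical stimulation the fitted levels lay close to those before therapy. In MS_A against CIA_B the log2 fold changes ran from -0.21 for rno-miR-23b-3p (SE 0.41) to 0.04 for rno-miR-23a-3p (SE 0.44), with a median of -0.10 beside 0.10 over all miRNAs, and no adjusted p of a member was under 0.994 by edgeR. In this comparison 1.11% of miRNAs passed the thresholds and 27.0% did not overlap, and no member did either. MS_A replicate 1 and replicate 2 pulled these values apart: without the former rno-miR-23b-3p was at -0.68 and rno-miR-23a-3p at -0.36, and without the latter at 0.095 and 0.33. The confidence intervals for the 4 members other than rno-miR-24-3p still reach from -1.31 to 1.03, so 2 libraries a group leave room for changes of up to about these sizes.

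After placebo the differences centred on rno-miR-23b-3p. CIA_B averaged 2082 ± 272 cpm and PLA_E 1246 ± 24.8 cpm (SD, n = 2), and the log2 fold change was -0.74 (SE 0.41, interval -1.66 to 0.18), or -0.37 with library size only. PLA_A averaged 1063 ± 48 cpm (SD, n = 2), and the log2 fold change was -0.97 (SE 0.41, interval -1.89 to -0.05), with an unadjusted p of 0.0417 and an adjusted p of 0.543 by edgeR's quasi-likelihood test. This was the only unadjusted p under 0.05 among the members in any comparison of this fit, and the change stopped short of 2-fold. With DESeq2 it was -1.06 and passed both thresholds, as it did with DESeq2's size factors in edgeR, with a mean of at least 100 counts and without CIA_B replicate 1, whereas limma-voom also gave no member past them. It was -0.67 with library size only and -0.83 without CIA_B replicate 2. rno-miR-23b-3p lay below both CIA_B libraries in PLA_E and in PLA_A, and rno-miR-23a-3p did so in PLA_E, where 21.2% and 36.5% of miRNAs did not overlap with CIA_B and 0.557% and 6.96% passed the thresholds. The median log2 fold change of the 5 members was -0.14 in PLA_E and -0.18 in PLA_A, beside 0.07 and 0.11 over all miRNAs. All comparisons with CIA_B share its 2 libraries, so rno-miR-23b-3p being lower in several of them is not independent evidence.

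Pooled over therapies and times, rno-miR-23b-3p had the largest difference of the members between the 8 libraries after therapy and CIA_B, with a log2 fold change of -0.61 (SE 0.31, interval -1.30 to 0.09) and an adjusted p of 0.932 by edgeR. rno-miR-27b-3p followed with -0.33 (SE 0.39; -0.20 with library size only), the median of the 5 was -0.23 beside 0.04 over all miRNAs, and 4.18% of miRNAs passed the thresholds.

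**Figure D2:**
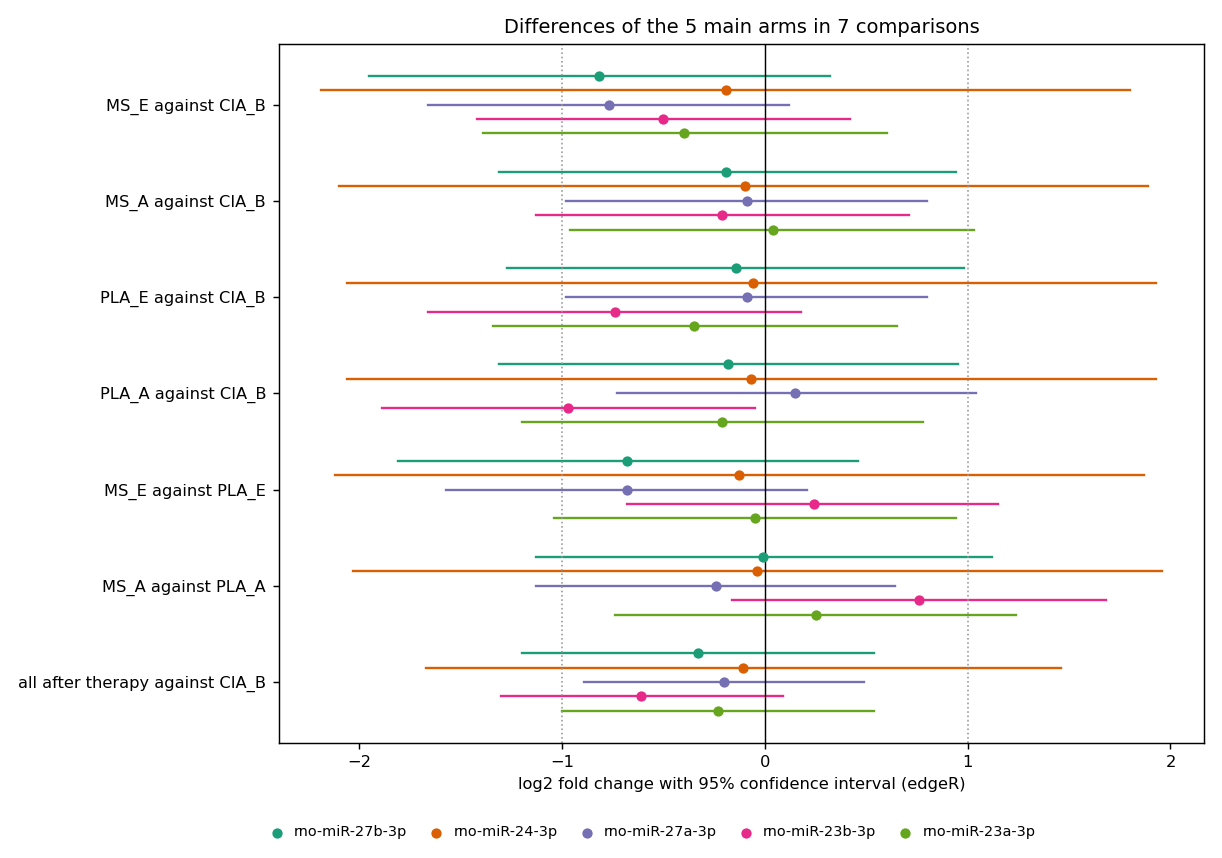
Fitted log2 fold changes (points) and 95% confidence intervals (lines) of the 5 main arms in 7 comparisons from edgeR, with dotted lines at a 2-fold change in either direction. Only the interval of rno-miR-23b-3p in PLA_A against CIA_B (-1.89 to -0.05) leaves out 0, and the intervals of rno-miR-24-3p are the widest, such as -2.10 to 1.89 in MS_A against CIA_B.

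The second question is whether mechanical stimulation and placebo differ at the same time. The difference of means here leaves out CIA_B, while the spread is still estimated from all 10 libraries. At 1 h rno-miR-23b-3p was at 1375 and 1564 cpm in MS_E and at 1264 and 1229 cpm in PLA_E, a log2 fold change of 0.24 (SE 0.41), which was 0.14 without MS_E replicate 2 and -0.018 with library size only. rno-miR-27a-3p was at 909 and 1218 cpm in MS_E and at 1665 and 1748 cpm in PLA_E, a log2 fold change of -0.68 (SE 0.40, interval -1.57 to 0.21). For neither of these members did the groups overlap. rno-miR-27b-3p had a log2 fold change of -0.68 too (SE 0.50, interval -1.81 to 0.46), with 16370 and 12172 cpm in MS_E and 16161 and 29411 cpm in PLA_E, so its groups overlapped, and the value ran from -1.04 without PLA_E replicate 1 to -0.16 without PLA_E replicate 2. The smallest adjusted p of a member was 0.832 by edgeR. Here 28.1% of miRNAs did not overlap and 3.9% passed the thresholds.

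At 34 days rno-miR-23b-3p and rno-miR-27a-3p again did not overlap, in the same directions on the TMM scale. rno-miR-23b-3p was at 2335 and 1265 cpm in MS_A and at 1097 and 1029 cpm in PLA_A, a log2 fold change of 0.76 (SE 0.41, interval -0.16 to 1.68). Without MS_A replicate 1 the log2 fold change was 0.31, and with library size only it was 0.32. rno-miR-27a-3p was at 1888 and 1523 cpm in MS_A and at 1901 and 2141 cpm in PLA_A, a log2 fold change of -0.24 (SE 0.39), which was -0.064 without PLA_A replicate 2 and -0.58 with library size only. The smallest adjusted p of a member was 0.999 by edgeR, 20.1% of miRNAs did not overlap and 1.95% passed the thresholds.

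The change from 1 h to 34 days was then compared between the therapies with an interaction term. The estimates were above 0 for 5 of 5 members (4 of 5 with library size only, and 5 of 5 in only 3 of the 8 fits that left out 1 library), with a median of 0.44 beside -0.10 over all miRNAs. The largest was 0.67 for rno-miR-27b-3p (SE 0.71), which ran from 0.12 without PLA_E replicate 2 to 1.08 without PLA_A replicate 2. No difference in this change was detected for a member, with a smallest adjusted p of 0.993 by edgeR, and 3.34% of miRNAs passed the thresholds. The intervals were wide, such as -0.93 to 2.27 for rno-miR-27b-3p and -2.73 to 2.91 for rno-miR-24-3p, so they do not show that the changes were alike.

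The group means of rno-miR-24-3p lay between 2700 and 3088 cpm (2571 to 3799 cpm with library size only), while its standard errors in the comparisons of 2 groups were the largest, at 0.88. The spread was within the groups. It was at 4026 to 4756 cpm in the miR-1-high libraries and at 1242 to 1721 cpm in the miR-1-low libraries, so the ranges did not touch, which held for 14.5% of the 359 miRNAs. The miR-1-high library exceeded its partner 3.35-fold in CIA_B, 3.35-fold in MS_E, 2.46-fold in PLA_E, 2.34-fold in MS_A and 3.58-fold in PLA_A. The median log2 fold over the 5 groups was 1.74, and it was 1.56 with DESeq2's size factors and 2.01 with library size only, where the median over all miRNAs moved from -0.02 to 0.36. Of the skeletal muscle list, whose sum contains miR-1-3p and so was fixed by the split, miR-206-3p separated the libraries too, while miR-133a-3p overlapped and was higher in the miR-1-high library of 3 of 5 groups. miR-133b-3p was higher there in 5 of 5 groups, at 3849 to 5049 cpm against 2404 to 3899 cpm, so these ranges overlapped narrowly. The 2 smooth muscle miRNAs went opposite ways. miR-143-3p, which makes up nearly all of their sum, was at 26338 to 53926 cpm in the miR-1-high and at 67938 to 101310 cpm in the miR-1-low libraries, whereas miR-145-5p was higher in the miR-1-high library of 5 of 5 groups, at 237 to 610 cpm against 122 to 306 cpm. The endothelial sums overlapped, at 10001 to 14657 cpm and 4394 to 14827 cpm, as did the 3 fibroblast miRNAs, at 1418 to 2702 cpm and 2339 to 3495 cpm, the 2 erythroid miRNAs, at 20.8 to 51.3 cpm and 14.7 to 84.5 cpm, and the 6 epithelial miRNAs, at 33.8 to 135 cpm and 57.4 to 434 cpm. The leukocyte sums also overlapped, at 1648 to 14586 cpm and 1638 to 3402 cpm, but miR-150-5p of that list did not, with 572 to 6222 cpm in the miR-1-high and 256 to 527 cpm in the miR-1-low libraries. The depths overlapped, at 1513799 to 7067292 and 3725355 to 8926170 reads. Their part in the levels of rno-miR-24-3p was not tested.

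The other 4 members did not separate these libraries. The miR-1-high library was above its partner for rno-miR-23a-3p in 3 of 5 groups, for rno-miR-23b-3p in 3, for rno-miR-27a-3p in 2 and for rno-miR-27b-3p in 1. rno-miR-27b-3p, the cluster neighbour of miR-24-1, was at 12172 to 25509 cpm in the miR-1-high and at 16370 to 29411 cpm in the miR-1-low libraries, with a median log2 fold of -0.66. These directions depend on the scale: with library size only rno-miR-27a-3p was higher in the miR-1-high library in 5 of 5 groups and rno-miR-27b-3p in 2, and with DESeq2's size factors rno-miR-27b-3p was higher in 0.

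As an alternative, a term for the miR-1-high libraries was added to the fit. This term was set from the same libraries, in which rno-miR-24-3p was already seen to separate, so the fall of its standard error from 0.88 to 0.29 follows from the choice of the term, and the p-values of this fit are not read as tests. The log2 fold changes of rno-miR-24-3p in the 6 comparisons of 2 groups were then between -0.24 for MS_E against PLA_E and 0.11 for MS_A against PLA_A. No member passed the thresholds with this term either. The log2 fold change furthest from 0 was that of rno-miR-23b-3p in PLA_A against CIA_B, at -0.96 with the term and -0.97 without it. Next came rno-miR-27b-3p (-0.86 with and -0.82 without the term) and rno-miR-27a-3p (-0.77 in both fits) in MS_E against CIA_B. Over all miRNAs 13.1% passed the thresholds with this term in PLA_A and 11.4% in MS_E against CIA_B. The share was 2.79% in MS_A and 2.51% in PLA_E against CIA_B, 6.13% and 3.9% between the therapies at 1 h and at 34 days, 5.01% for all libraries after therapy and 4.46% for the interaction.

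The 5p arms show each mir-24 hairpin on its own. They carry the same seed and differ in the bases at their 3′ ends.
rno-miR-24-1-5p: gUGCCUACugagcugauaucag
rno-miR-24-2-5p: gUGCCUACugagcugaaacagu
rno-miR-24-1-5p comes from the chromosome 17 cluster. CIA_B held 13 and 3.97 cpm, MS_E 3.09 and 7.65, PLA_E 11 and 5.52, MS_A 1.9 and 10 and PLA_A 8.47 and 5.47. The miR-1-high libraries, at 7.65 to 13 cpm, lay above the miR-1-low libraries, at 1.9 to 5.52 cpm, although these levels rest on only 8 to 82 reads. rno-miR-24-2-5p comes from the chromosome 19 cluster. CIA_B held 167 and 167 cpm, MS_E 84.1 and 159, PLA_E 225 and 166, MS_A 245 and 181 and PLA_A 255 and 250. It overlapped between these libraries and was the more abundant 5p arm in 10 of 10. The arm of miR-24-1 thus went with rno-miR-24-3p across the libraries (Pearson r = 0.82 over n = 10, on log2 cpm), and that of miR-24-2 less closely (r = 0.28), while rno-miR-24-2-5p went with rno-miR-27a-3p of its own cluster (r = 0.81). rno-miR-24-1-5p did not go with its cluster neighbours, with r = -0.36 for rno-miR-27b-3p and r = -0.41 for rno-miR-23b-3p. These correlations are descriptions, share the libraries and their scaling, and are 0.90, 0.63, 0.93, 0.23 and 0.24 in this order with library size only.

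**Figure D3:**
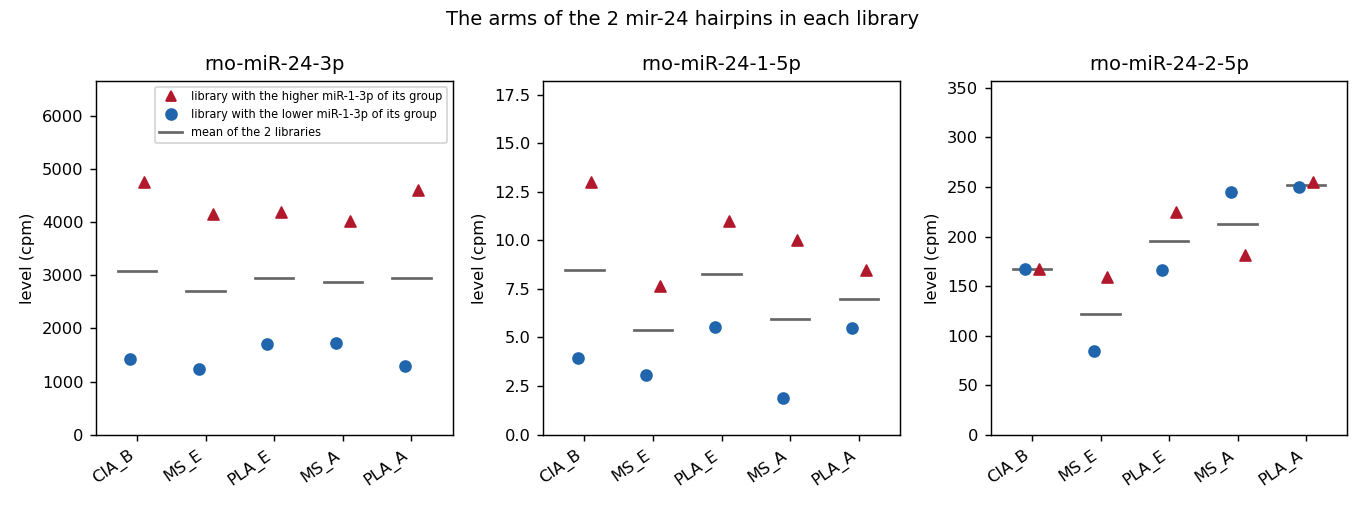
Level in cpm (linear axes from 0) of rno-miR-24-3p and of the 5p arms of the 2 mir-24 hairpins in each library by group, with triangles for the miR-1-high and circles for the miR-1-low libraries and a line for the mean of the 2. The triangles lie above the circles for rno-miR-24-3p and rno-miR-24-1-5p (7.65 to 13 cpm against 1.9 to 5.52 cpm) and overlap with them for rno-miR-24-2-5p (159 to 255 cpm against 84.1 to 250 cpm).

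The other passenger arms were rare. rno-miR-27b-5p was at 22.1 to 49.4 cpm and rno-miR-27a-5p at 1.73 to 10 cpm, far below their 3p partners. rno-miR-23a-5p had 0 to 3 reads and rno-miR-23b-5p 0 to 5 reads per library, and neither passed the filter of 1 cpm in 5 libraries. rno-miR-27a-5p was below its partner library in 5 of 5 miR-1-high libraries on the TMM scale and in 2 of 5 with library size only. This rests on few reads, 2 against 68 in CIA_B, and the fold was as near to 1 as 0.922 in PLA_A.

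Ratios of members within a library do not depend on the scaling between libraries. The ratio of rno-miR-23a-3p to rno-miR-23b-3p, 1 from each cluster with a shared seed, ranged from 0.467 to 1.03. CIA_B held 0.77 and 0.467, MS_E 0.516 and 0.768, PLA_E 0.75 and 0.838, MS_A 0.703 and 0.743 and PLA_A 1.02 and 1.03. PLA_A was thus the only group in which rno-miR-23a-3p had more reads than rno-miR-23b-3p. On the log2 scale the mean of the 4 libraries after mechanical stimulation was -0.57 ± 0.26 and that of the 4 after placebo -0.15 ± 0.22 (SD), a difference of -0.42 (exact two-sided permutation test, p = 0.0571, adjusted p = 0.514 over 12 tests). The smallest p this test can give with 4 against 4 is 0.0286. Like the other tests between the arms' ratios, it pools 1 h and 34 days. At 1 h the arms overlapped, with 0.516 and 0.768 in MS_E and 0.75 and 0.838 in PLA_E.

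The ratio of the 2 miR-27 members to the 2 miR-23 members, which pairs neighbours within the clusters, ranged from 4.84 to 14.1. CIA_B held 8.29 and 7.88, MS_E 8.29 and 4.84, PLA_E 8.06 and 13.8, MS_A 7.46 and 8.16 and PLA_A 8.65 and 14.1. The libraries with the 2 highest ratios were the miR-1-low libraries of the placebo groups. The log2 ratio averaged 2.81 ± 0.36 after mechanical stimulation and 3.43 ± 0.43 (SD) after placebo, a difference of -0.62 (exact two-sided permutation test, p = 0.0857, adjusted p = 0.514).

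The ratio of rno-miR-27a-3p to rno-miR-27b-3p was 0.0866 to 0.11 in the miR-1-high and 0.0556 to 0.0786 in the miR-1-low libraries, so here the clusters' shares of the miR-27 reads went with the split. The ratio of rno-miR-24-3p to the other 4 members together was 0.153 to 0.257 in the former and 0.041 to 0.0642 in the latter. Between the study's groups these ratios had differences of -0.24 to 0.31 on the log2 scale, with an adjusted p of 0.689 in each exact permutation test, and without 1 library that of the ratio of rno-miR-24-3p after therapy against CIA_B ran from -0.53 to 1.14. A single ratio at the smallest p that these tests can give (0.0222 or 0.0286) would still miss 0.05 after adjustment, so the adjusted values do not show that the ratios were alike. Of the 12 tests of 4 ratios, none had an adjusted p or an unadjusted p under 0.05.

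**Figure D4:**
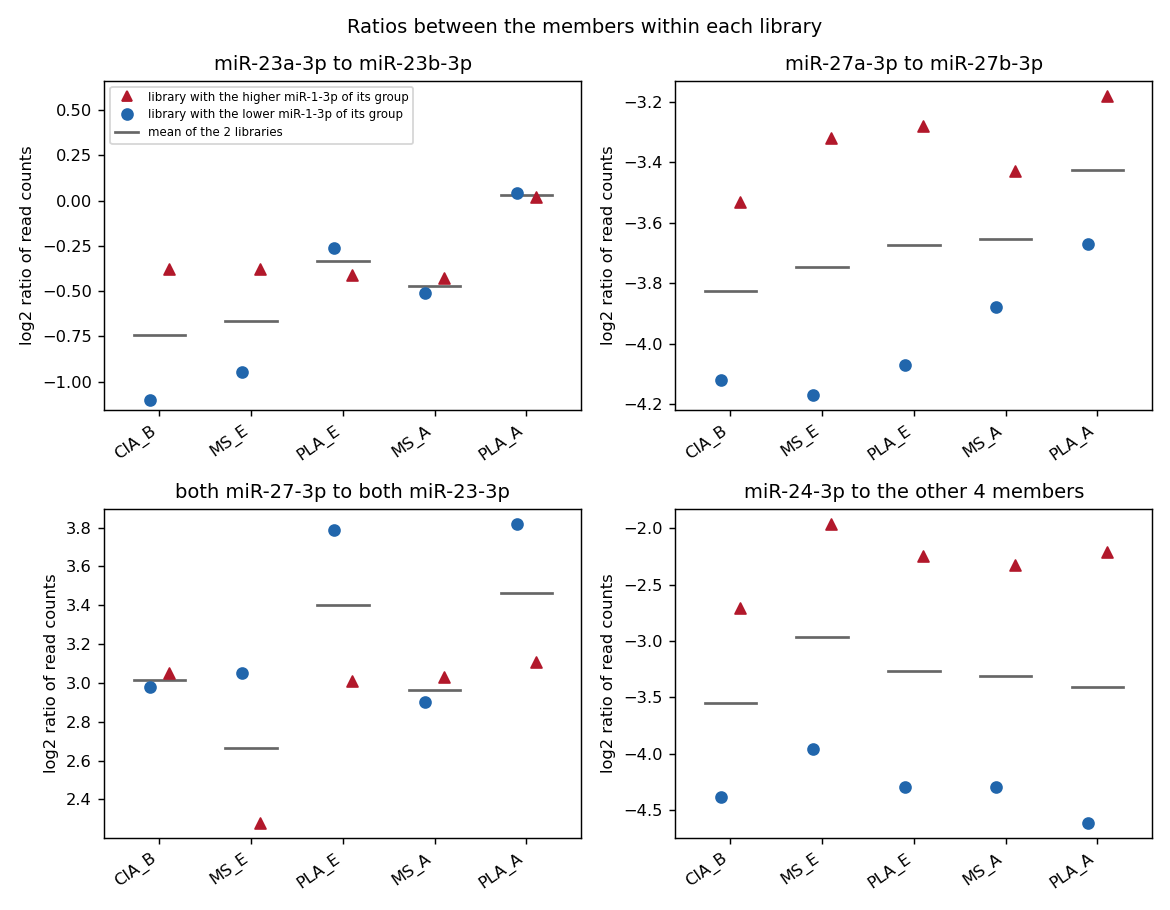
Log2 ratio of read counts between members in each library by group, in 4 panels with separate axes that do not start at 0, with triangles for the miR-1-high and circles for the miR-1-low libraries and a line for the mean of the 2. The triangles lie above the circles in the panels of rno-miR-27a-3p to rno-miR-27b-3p and of rno-miR-24-3p to the other 4 members, and PLA_A has the highest ratios of rno-miR-23a-3p to rno-miR-23b-3p, 1.02 and 1.03 as plain ratios.

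The miRNAs most like each member over the 10 libraries were found by the Pearson correlation of log2 cpm among the tested miRNAs outside the clusters. For rno-miR-24-3p they were miR-206-3p (r = 0.97), miR-3577 (0.97) and miR-1-3p (0.96), and Spearman's rho was 0.70 to 0.77, so the likeness lies in the split more than in the order within it. For rno-miR-27b-3p they were 3 arms of the miR-30 family, miR-30e-3p (0.96), miR-30a-5p (0.93) and miR-30a-3p (0.91). For rno-miR-27a-3p they were miR-126a-5p (0.92), from an intron of the endothelial gene Egfl7, miR-30e-5p (0.92) and miR-191a-3p (0.85). For rno-miR-23a-3p they were miR-133a-5p (0.80), miR-126a-5p (0.78) and miR-378a-5p (0.70), and for rno-miR-23b-3p miR-26a-5p (0.85), miR-223-5p (0.81) and let-7c-1-3p (0.67). Spearman's rho was 0.42 to 0.92 for these 12, lowest for miR-378a-5p, and with library size only r was 0.58 to 0.96, lowest for miR-223-5p. Within the clusters, rno-miR-27a-3p and rno-miR-23a-3p of chromosome 19 had r = 0.65, rno-miR-27b-3p and rno-miR-23b-3p of chromosome 17 had r = 0.27, and the miR-27 pair across chromosomes had r = 0.61, which were 0.82, 0.15 and 0.72 with library size only. These values are over n = 10 libraries that share their scaling and are given with no test.

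miRNAs outside the clusters can carry a seed that matches that of a member. The bases of the miR-27 seed also open miR-128-3p, shifted by 1, and those of the miR-24 seed open miR-222-5p in the same way, with the shared bases in capitals.
rno-miR-128-3p: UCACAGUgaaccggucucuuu
rno-miR-222-5p: GGCUCAGuagccaguguagau
miR-128-3p, a miRNA best known from brain and muscle, was at 158 to 712 cpm with a median of 509 cpm, far below rno-miR-27b-3p, and its lowest level was again in MS_E replicate 1. miR-222-5p was at 0 to 0.625 cpm. Among these miRNAs, reads with the bases of the miR-24 seed were thus nearly all of rno-miR-24-3p.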

How the data were processed

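Small RNA libraries, 2 for each of 5 groups taken from the labels, were read as count files, 1 per library. The authors prepared them with the TruSeq small RNA kit for an Illumina HiSeq, used CASAVA 1.8 and bowtie per the labels, dropped short reads, counted with miRDeep2 on rn4 and miRBase, and deposited whole, unnormalized counts per precursor. A mature miRNA with several precursors (35 of 723) was given its largest count. A series table whose 20 columns match no label was not used.

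edgeR 4.0.16 in R 4.3.3 gave TMM factors and quasi-likelihood tests (prior count 2) from these counts for the 359 miRNAs that reached 1 cpm in 5 or more libraries, with a mean per group, all libraries in 1 fit and Benjamini-Hochberg adjustment over the 359. Fold changes are log2. Named miRNAs are the 5 members, their passenger arms, miRNAs with a matching seed, the 3 most correlated with each member, and markers beside a result. The members and lists were chosen with earlier results of these data known. Replicate numbers mark no shared animal, since tissue was taken at sacrifice. Libraries of a group were no duplicates, with a chi-square over degrees of freedom of 1562.4 to 7794. The fit was tested on simulated data. Alternatives were limma-voom 3.58.1, DESeq2 1.42.0, other scalings and filters, only the libraries compared, summed precursors, a replicate block, a term for the library split, and each library left out. The folds between miR-1-high and miR-1-low libraries were rescaled after seeing the data. Figures were drawn with matplotlib 3.10.9 in Python 3.11.15.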

Additional observations from a re-analysis of the deposited data

Results flagged for a closer look

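Among the 8 libraries after therapy, rno-miR-23b-3p in MS_A replicate 1 lay far above the others. It had 2335 cpm, where the other 7 had 1029 to 1564 cpm, and its gap to the next library was too large a share of the range by Dixon's criterion. This was 1 of 45 sets of values examined, of which chance flags about 1 in 20. Within MS_A the other library had 1265 cpm.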

How the results depend on the processing

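The count of members past the thresholds was 0 under every alternative, except for PLA_A against CIA_B, where it was 1, rno-miR-23b-3p, with DESeq2, with DESeq2's size factors in edgeR and with a mean of at least 100 counts, and 0 to 1 with each library left out (1 without CIA_B replicate 1). The replicate block left every count at 0, and the numbers do not pair the samples: deviations of same-numbered libraries correlated at -0.544 to 0.587, above 0.1 in 4 of 10 pairs of groups. Library size only moved the median of all miRNAs to between -0.34 and 0.41, against -0.10 to 0.11 with TMM. rno-miR-23a-3p in MS_A against CIA_B was at -0.025 with DESeq2 and with its size factors in edgeR, -0.028 with library size only, -0.058 with a mean of at least 100 counts and -0.018 summed over precursors, and rno-miR-23b-3p in MS_E against PLA_E was at -0.018 with library size only. With each library left out these ran from -0.36 to 0.33 for rno-miR-23a-3p and from -0.68 to 0.095 for rno-miR-23b-3p in MS_A against CIA_B. The log2 ratio of rno-miR-27a-3p to rno-miR-27b-3p then differed by -0.10 to 0.50 after therapy and by -0.32 to 0.0054 between MS and PLA, that of the miR-27 to the miR-23 members by -0.069 to 0.43 between 34 days and 1 h, and that of rno-miR-24-3p to the other 4 by -0.53 to 1.14, -0.21 to 0.59 and -0.63 to 0.17 in the 3 tests. Over the 8 comparisons and all alternatives the fold change of rno-miR-24-3p took the other direction in 46 of 121 values, that of rno-miR-23a-3p in 16, rno-miR-27b-3p in 10, rno-miR-27a-3p in 8 and rno-miR-23b-3p in 2, and the cause was not tested. Each member had at least 1682 reads in every library, so precision is limited by the spread between 2 libraries more than by depth.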
